A study of Mus musculus with 8 samples.

Results

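The genes described here encode the receptors for the Fc part of immunoglobulin G and the 2 small signalling chains through which myeloid cells read activating receptors. They were taken by gene symbol: Fcgr1, Fcgr2b, Fcgr3, Fcgr4, Fcgrt, Fcer1g and Tyrobp, 7 genes with 12 probe sets, out of 18193 genes with 34945 probe sets that carry a single symbol in the annotation of the array. RNA of epididymal fat, a visceral fat pad of the male mouse, was hybridized to 1 array per mouse, 8 arrays in all, and each group held 2 mice. All mice were male C57BL/6J, a common inbred laboratory strain, and entered the study at 6 weeks of age. HFD+Tel mice were kept on a high-fat feed (fat giving 30% of the calories) for 24 weeks and then received telmisartan in the drinking water at about 3 mg/kg/day for 5 weeks. HFD+Can mice had the same diet and then candesartan at the same dose for the same time. HFD mice had that diet without a drug, and Chow mice had a chow with 10% of its energy as fat and no drug. Diet time is given as 24 weeks for every group. Whether Chow mice stayed on chow over the 5 drug weeks is not spelled out. Equal age of all groups at sampling is therefore not known here. Telmisartan and candesartan both block the angiotensin II type 1 receptor. With 2 mice per group, p-values measure the spread between these mice only.

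Fc gamma receptors bind the constant part of IgG on immune complexes and on coated particles. FCGR1, FCGR3 and FCGR4 are activating and depend on the FCER1G chain, whose immunoreceptor tyrosine-based activation motif (ITAM) is phosphorylated and recruits the kinase SYK. TYROBP, also called DAP12, carries the same kind of motif and serves other myeloid receptors such as TREM2. FCGR2B is the inhibitory receptor: its inhibitory motif (ITIM) recruits the phosphatase SHIP1, encoded by Inpp5d. FCGRT, the neonatal Fc receptor, differs from the others in that it pairs with beta-2 microglobulin and recycles IgG and albumin inside cells. In fat these genes are mostly read as genes of macrophages, though B cells, mast cells, neutrophils, NK cells and endothelium each express some of them.

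Fcgr2b, Fcgr4 and Fcgr3 are direct neighbours in the gene order of mouse chromosome 1, and Fcgr1 lies on chromosome 3. The start regions of these 4 are shown because the 3 activating receptors rose on the diet while the inhibitory Fcgr2b was not called without a drug. They were thus chosen after the values were seen. Each window runs from 250 bases before to 50 bases after the annotated start, 5′ to 3′ on the strand of the gene, and comes from RefSeq on GRCm38.p6. They are chr3:96293920-96294219 (minus strand) for Fcgr1, chr1:171059354-171059653 (minus strand) for Fcgr3, chr1:171018676-171018975 (plus strand) for Fcgr4 and chr1:170976022-170976321 (minus strand) for Fcgr2b. Capitals mark matches to GAGGAA on either strand, the core bound by the myeloid transcription factor PU.1, and in these windows every match reads TTCCTC because it lies on the other strand.
Fcgr1: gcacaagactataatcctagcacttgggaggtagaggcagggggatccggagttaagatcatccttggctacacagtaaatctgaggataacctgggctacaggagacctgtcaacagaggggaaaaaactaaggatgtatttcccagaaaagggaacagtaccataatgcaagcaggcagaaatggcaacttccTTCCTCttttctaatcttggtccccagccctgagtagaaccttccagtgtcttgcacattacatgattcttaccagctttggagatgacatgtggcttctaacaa
Fcgr3: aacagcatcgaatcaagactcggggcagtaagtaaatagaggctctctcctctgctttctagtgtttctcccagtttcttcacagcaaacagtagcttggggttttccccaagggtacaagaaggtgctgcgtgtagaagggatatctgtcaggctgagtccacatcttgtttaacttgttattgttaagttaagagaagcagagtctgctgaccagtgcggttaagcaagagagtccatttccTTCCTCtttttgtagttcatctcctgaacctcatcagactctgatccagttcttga
Fcgr4: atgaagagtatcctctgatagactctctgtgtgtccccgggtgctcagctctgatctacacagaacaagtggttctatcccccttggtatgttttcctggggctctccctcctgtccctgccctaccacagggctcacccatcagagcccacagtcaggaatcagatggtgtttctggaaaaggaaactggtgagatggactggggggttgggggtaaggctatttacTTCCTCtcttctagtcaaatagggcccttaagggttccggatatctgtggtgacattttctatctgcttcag
Fcgr2b: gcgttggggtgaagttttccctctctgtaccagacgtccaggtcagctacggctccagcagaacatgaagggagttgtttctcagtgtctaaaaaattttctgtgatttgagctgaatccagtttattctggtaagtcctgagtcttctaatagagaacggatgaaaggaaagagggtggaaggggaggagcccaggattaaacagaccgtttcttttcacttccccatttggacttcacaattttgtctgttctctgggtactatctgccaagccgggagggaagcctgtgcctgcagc
Fcgr1, Fcgr3 and Fcgr4 each held 1 match, which began 55, 6 and 22 bases before the start. Fcgr3 has a second annotated start with an overlapping window that holds the same match. The windows of Fcgr2b, Fcgrt and Fcer1g held 0 matches, and Tyrobp had no entry in the table used. Of these, Fcer1g and Tyrobp also rose on the diet. Of 32851 promoter windows of the same length, 28.3% held GAGGAA on either strand. The interferon-gamma element TTCNNNGAA, searched on both strands, had 1 match in Fcgr1 and 0 in the other 5 genes, against 8.3% of all windows, and did not overlap the capitals. A match describes letters only, and binding was not measured.

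All values below are signal intensities scaled so that each array had the same trimmed mean. The unscaled trimmed means differed by up to 1.48 times between arrays, and each array had 18.6% to 22.4% of its probe sets at or under the floor of 6.69. Of the 12 probe sets of the 7 genes, 11 passed the filter at a mean signal of 40.5. The one that did not is a further Fcgr2b probe set, 1447622_at, which lay at the floor on all 8 arrays. The arrays of 2 mice did not sit evenly within every group. The mean log2 signal of 12 macrophage markers was higher by 0.62 on the second HFD+Tel array than on the first, against gaps of 0.21 between the HFD+Can arrays, 0.04 between the HFD arrays and 0.20 between the Chow arrays. Marker genes of epididymis and testis did not reach the filter (0 of 7 on the array), so RNA of the neighbouring organ was not detected above it. Adipocyte markers were strong in all groups: 8 of 8 on the array passed the filter.

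The first comparison asked what the high-fat diet alone did to these genes. Both signalling chains and all 3 activating Fc gamma receptors rose in HFD fat, by 2.64 to 6.33 times, whereas the inhibitory receptor Fcgr2b and the neonatal receptor Fcgrt were not called. Thus 5 of 7 genes rose and 0 fell in limma's test at an adjusted p under 0.05, against a background of 5.15% of all 11232 genes tested that rose and 2.95% that fell. In the 5 genes both HFD arrays lay above both Chow arrays, as in 27.8% of all genes. The median log2 change was 1.49 over the 7 genes and −0.01 over all genes tested. In RNA of a whole tissue, more cells of a type and more RNA per cell cannot be told apart. The 12 macrophage markers moved with these genes: 11 of 12 rose, 0 fell, and their summed signal was 58269 and 61541 on the HFD arrays against 27107 and 28936 on the Chow arrays. Their part in the result was not tested.

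**Figure D1:**
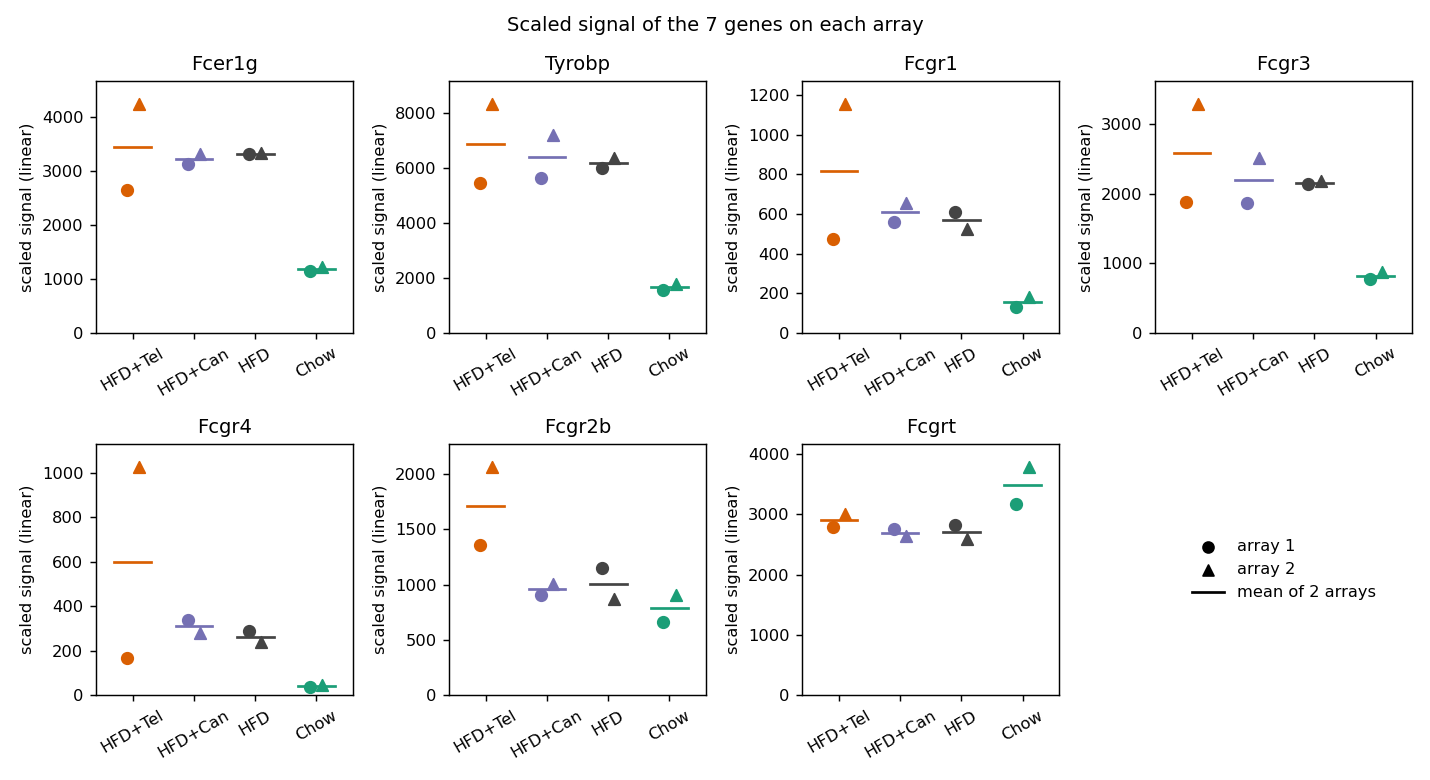
Scaled signal (linear, vertical axis from 0) of each gene's brightest probe set on the 8 arrays, by group; circles are array 1, triangles array 2 and bars the mean of 2 arrays. The 6 high-fat arrays lie above both Chow arrays for Fcer1g, Tyrobp, Fcgr1, Fcgr3 and Fcgr4, Fcgrt lies lower on all 6, and Fcgr2b stands higher on the 2 HFD+Tel arrays.

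The signalling chains gave the firmest differences. Tyrobp had signals of 5987 and 6369 on the HFD arrays, against 1568 and 1759 on the Chow arrays. Its HFD arrays lay well above its Chow arrays and close to each other. The log2 change was 1.89 (95% confidence interval 1.44 to 2.35; limma, adjusted p = 0.00147). Fcer1g, the common gamma chain, had 3302 and 3329 on the HFD arrays and 1147 and 1222 on the Chow arrays. These groups too were far apart relative to the gap within each, with a log2 change of 1.49 (1.04 to 1.93; limma, adjusted p = 0.00364). The call for Tyrobp held under every alternative setting and every array left out, and that for Fcer1g under all but 1: without the filter on dim probe sets its adjusted p in limma was 0.0623.

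The activating receptors rose as well. Fcgr1, the high-affinity IgG receptor of monocytes and macrophages, had signals of 611 and 525 in HFD fat and 130 and 182 in Chow fat, a log2 change of 1.88 (1.05 to 2.71; limma, adjusted p = 0.0185). Fcgr3, the low-affinity receptor for immune complexes, had 2133 and 2185 in HFD fat and 768 and 872 in Chow fat, a log2 change of 1.40 (0.83 to 1.97; limma, adjusted p = 0.0138). No HFD array of either gene came near a Chow array. Fcgr4, a receptor for IgG2a and IgG2b on macrophages and neutrophils, had 288 and 241 in HFD fat and 38.6 and 44.7 in Chow fat. Its log2 change of 2.66 was the largest of the 7 genes and the least precise (1.17 to 4.16; limma, adjusted p = 0.0438). The Chow signals of Fcgr4 stood at about the filter value of 40.5. Without the first Chow array the adjusted p in limma was 0.0889 for Fcgr1, 0.0647 for Fcgr3 and 0.149 for Fcgr4, and without either HFD array, which leaves 1 array in that group, it lay between 0.0996 and 0.221 for these 3 genes. Fcgr4 also missed the threshold without the second Chow array (0.103) or either HFD+Can array (0.0833 and 0.0825), while the log2 changes stayed between 1.31 and 2.79.

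A second Fcgr1 probe set gave a smaller change. Probe set 1436625_at had signals of 173 and 169 in HFD fat and 74.4 and 85.0 in Chow fat. Its groups also did not overlap, but its log2 change of 1.11 was not called (limma over all probe sets with a single symbol, adjusted p = 0.168), against 1.88 for 1417876_at. With the mean of both in place of the brighter one, Fcgr1 changed by 1.49 on the log2 scale and was not called (limma, adjusted p = 0.0564).

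Fcgr2b did not follow the activating receptors. It had signals of 1149 and 872 in HFD fat and 666 and 909 in Chow fat, so the groups overlapped, and the log2 change was 0.36 (−0.18 to 0.91; limma, adjusted p = 0.395). The other 3 probe sets past the filter gave changes of 0.13, −0.09 and 0.08. Names ending in _s_at or _x_at stand for probe sets whose probes can match related transcripts, and Fcgr2b and Fcgr3 are close in sequence outside the cell membrane, so some cross-hybridization of these probe sets was not tested. Fcgrt was lower on both HFD arrays (2832 and 2586) than on the Chow arrays (3170 and 3791). Both HFD arrays lay below both Chow arrays, as in 30.3% of all genes, and the log2 change of −0.36 was not called (−0.64 to −0.07; limma, adjusted p = 0.125). Endothelial markers, of a cell type known to carry Fcgrt, moved the same way: 4 of 7 fell and 0 rose, and their summed signal was 3866 and 3608 on the HFD arrays and 6152 and 5281 on the Chow arrays. The macrophage markers moved the other way, as given above (11 of 12 rose, 0 fell). The part of either cell type in the values of Fcgrt was not tested.

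The drug-treated groups kept the pattern of the diet when set against Chow. These comparisons use the same 2 Chow arrays as the first, so they are not independent of it. In HFD+Tel fat, 6 of 7 genes rose and 0 fell, against 4.96% of all genes that rose and 3.48% that fell. In HFD+Can fat, 5 of 7 rose and 0 fell, against 4.48% that rose and 2.11% that fell. Tyrobp had 5441 and 8322 on the HFD+Tel arrays and 5625 and 7192 on the HFD+Can arrays, and Fcer1g had 2641 and 4238 on the HFD+Tel arrays and 3121 and 3309 on the HFD+Can arrays. All of these values lay above the Chow values of the same gene, as did both arrays of 22.4% of all genes in HFD+Tel fat and 25.8% in HFD+Can fat. Against Chow, the log2 change of Tyrobp was 2.02 in HFD+Tel fat and 1.94 in HFD+Can fat (limma, adjusted p = 0.00144 and 0.00161), and that of Fcer1g was 1.44 in HFD+Can fat (limma, adjusted p = 0.00476), with a 2.83-fold rise in HFD+Tel fat (limma, adjusted p = 0.00382).

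The arrays of the receptors spread more. Fcgr1 had 475 and 1156 on the HFD+Tel arrays and 558 and 657 on the HFD+Can arrays, with log2 changes against Chow of 2.27 in HFD+Tel fat and 1.98 in HFD+Can fat (limma, adjusted p = 0.00847 and 0.0171). Fcgr3 had 1881 and 3291 on the HFD+Tel arrays and 1870 and 2518 on the HFD+Can arrays, with changes of 1.60 in HFD+Tel fat and 1.41 in HFD+Can fat (limma, adjusted p = 0.00795 and 0.0150). Fcgr4 had 168 and 1027 on the HFD+Tel arrays and 338 and 283 on the HFD+Can arrays, with changes of 3.32 in HFD+Tel fat and 2.89 in HFD+Can fat (limma, adjusted p = 0.0189 and 0.0365). The 2 HFD+Tel mice were far apart for Fcgr4: the first lay below all HFD and HFD+Can arrays and the second was the highest of the 8. Without the first HFD+Tel array its log2 change against Chow was 4.63 and without the second 2.01. In HFD+Tel fat the Fcgr4 call was lost without either Chow array (limma, adjusted p = 0.0683 and 0.0711) and with only the HFD+Tel and Chow arrays in the fit (0.0756). In HFD+Can fat the call for Fcgr4 was lost when any array of the Chow, HFD or HFD+Can groups was left out (limma, adjusted p between 0.0719 and 0.203). Leaving out the second HFD+Can array also ended the HFD+Can calls for Fcgr1 (0.158), Fcgr3 (0.158) and Fcer1g (0.0665), leaving out the first ended that for Fcgr1 (0.0803), and leaving out the first Chow array ended those for Fcgr1 (0.0818) and Fcgr3 (0.0684). Against Chow, Fcgrt was at 2788 and 3008 in HFD+Tel fat and 2752 and 2641 in HFD+Can fat, all below both Chow arrays (as in 25.2% of all genes for HFD+Tel and 28% for HFD+Can), and was called in neither comparison (limma, adjusted p = 0.245 and 0.137).

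**Figure D2:**
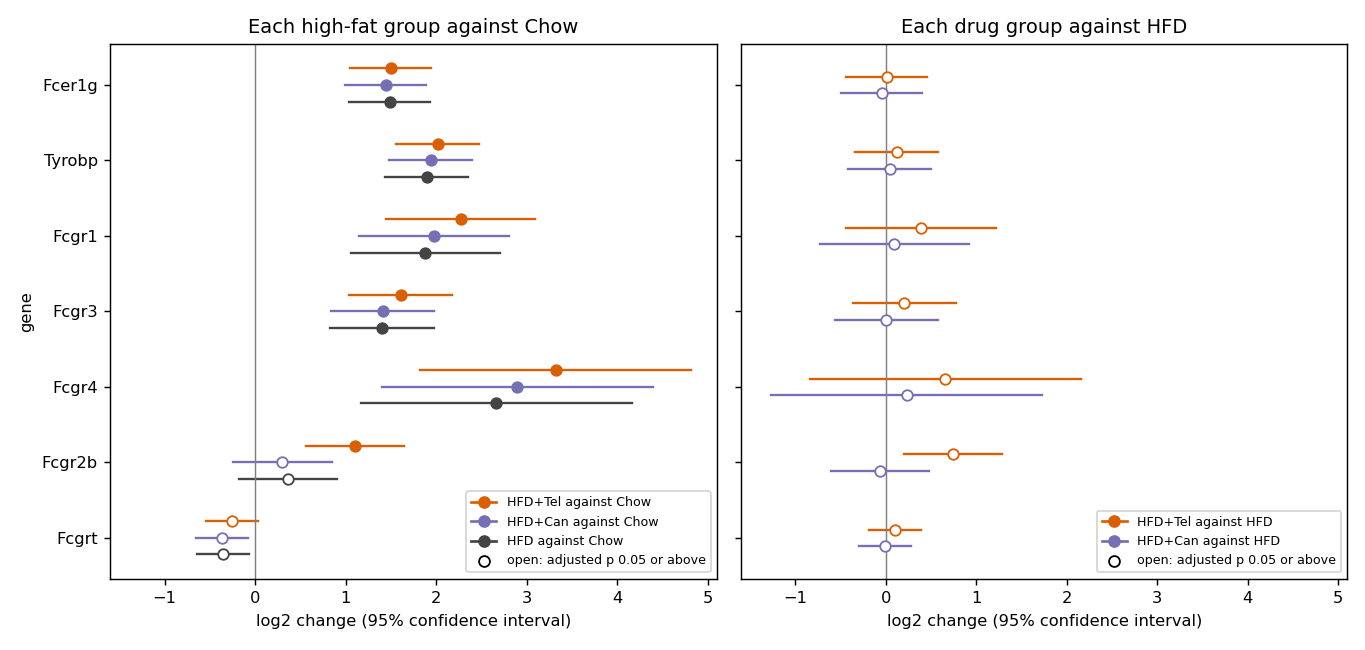
Log2 change of the 7 genes (points) with its 95% confidence interval (lines) for each high-fat group against Chow on the left and each drug group against HFD on the right; filled points have an adjusted p under 0.05 in limma. The 5 genes from Fcer1g to Fcgr4 are filled in all 3 comparisons with Chow, Fcgr2b is filled for HFD+Tel against Chow, and no point on the right is filled.

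With the mean of the 3 high-fat groups set against Chow, which uses all 8 arrays, 5 of 7 genes rose and 0 fell, against 7.59% of all genes that rose and 5.88% that fell. The log2 changes were 1.95 for Tyrobp (limma, adjusted p = 0.000291), 1.48 for Fcer1g (0.000899; interval 1.11 to 1.84), 2.04 for Fcgr1 (0.00348), 1.47 for Fcgr3 (0.00277) and 2.96 for Fcgr4 (0.00919). In these 5 genes all 6 high-fat arrays lay above both Chow arrays, as did 14.8% of all genes. Fcgrt lay below on all 6, as did 15.1% of all genes, with a log2 change of −0.33 that was not called (−0.56 to −0.09; limma, adjusted p = 0.0709). Fcgr2b changed by 0.59 (0.15 to 1.03; limma, adjusted p = 0.0806). It was called without the first HFD+Tel array (0.69; limma, adjusted p = 0.0178), and the call for Fcgr4 was lost without the first or second Chow array (0.0632 and 0.0521).

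Fcgr2b was the one receptor whose telmisartan arrays stood apart from all others. It had signals of 1358 and 2066 on the HFD+Tel arrays, 911 and 1007 on the HFD+Can arrays, 1149 and 872 on the HFD arrays and 666 and 909 on the Chow arrays. Both HFD+Tel arrays lay above all 6 other arrays, as in 4.82% of all genes. Against Chow, Fcgr2b rose 2.15-fold in HFD+Tel fat (log2 change 1.11, 0.56 to 1.65; limma, adjusted p = 0.0259) and had a log2 change of 0.30 in HFD+Can fat (−0.24 to 0.84; limma, adjusted p = 0.518). The HFD+Tel call did not hold without the first Chow array (limma, adjusted p = 0.0973), the second HFD+Tel array (0.0852) or either HFD+Can array (0.0552 and 0.0546), nor with only the HFD+Tel and Chow arrays in the fit (0.0920).

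Set directly against HFD, Fcgr2b in HFD+Tel fat had a log2 difference of 0.74 (0.20 to 1.29), with an unadjusted p of 0.0130 and an adjusted p of 0.766 in limma. Set against HFD+Can it had a log2 difference of 0.81 (0.26 to 1.35), with an unadjusted p of 0.00860 and an adjusted p of 0.924 in limma. Neither passed the threshold over all genes. The size rested on the second HFD+Tel array: without it the log2 difference was 0.44 from HFD and 0.50 from HFD+Can, and without the first it was 1.05 and 1.11. Of all genes, 18.5% had both HFD+Tel arrays above both HFD arrays, and 15.6% above both HFD+Can arrays. The 4 Fcgr2b probe sets past the filter gave log2 differences from HFD of 0.74, 0.64, 0.73 and 0.94, and on each of them both HFD+Tel arrays exceeded the 6 other arrays. The one of these that was not called against Chow, 1451941_a_at, had 1204 and 1506 on the HFD+Tel arrays, 734 and 791 on the HFD+Can arrays, 907 and 725 on the HFD arrays and 835 and 897 on the Chow arrays. Fitted as separate features, each had an adjusted p of 0.654 in limma for HFD+Tel against HFD, and 3 of the 4 rose in HFD+Tel fat against Chow (limma, adjusted p = 0.0544 for 1451941_a_at). The 4 probe sets measure 1 gene in the same RNA and are not separate evidence of a difference between mice.

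**Figure D3:**
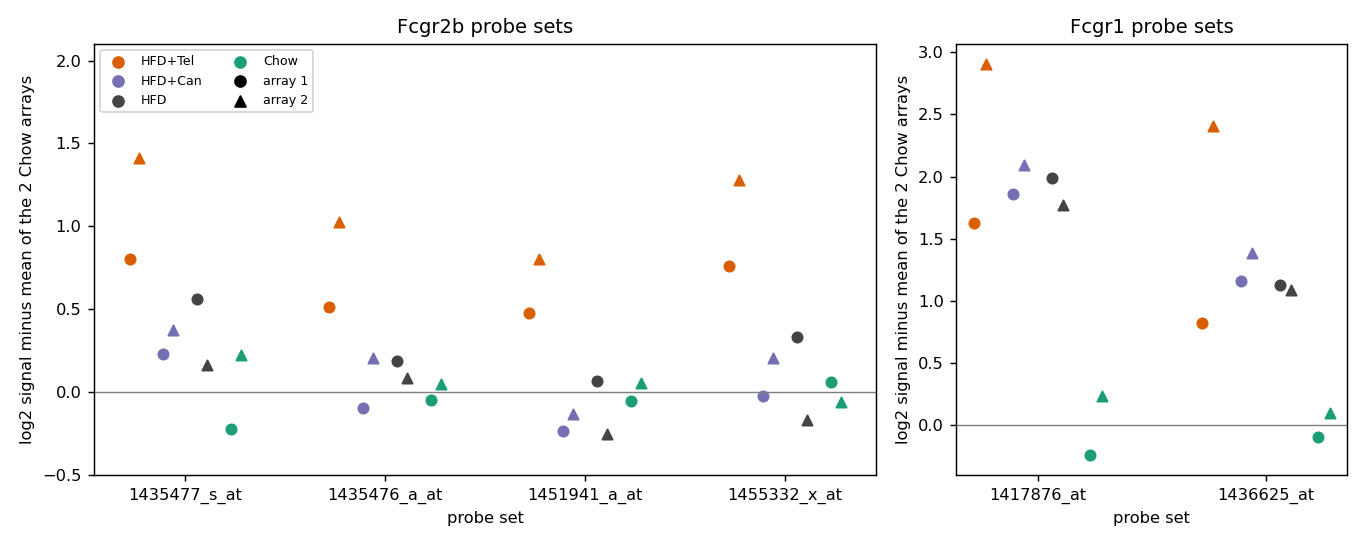
Log2 signal of each probe set of Fcgr2b (left, 4 past the filter) and Fcgr1 (right, 2) on the 8 arrays, relative to the mean of the 2 Chow arrays of the same probe set; colours are groups, circles array 1 and triangles array 2. At each Fcgr2b probe set both HFD+Tel points lie above the other 6, and at Fcgr1 the second HFD+Tel array is highest and the first HFD+Tel array lowest among the high-fat arrays.

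For the other 6 genes no difference between a drug group and HFD passed the test. In limma 0 of the 7 genes were called in HFD+Tel against HFD, in HFD+Can against HFD or in HFD+Tel against HFD+Can, where 0% of all genes were called. At an unadjusted p under 0.05 the counts were 1, 0 and 1 of 7, in both cases Fcgr2b, against 6.2%, 1.25% and 4.9% of all genes. The log2 differences of HFD+Tel from HFD were 0.39 for Fcgr1 (−0.44 to 1.21), 0.20 for Fcgr3 (−0.36 to 0.77), 0.66 for Fcgr4 (−0.84 to 2.16), 0.10 for Fcgrt (−0.19 to 0.38), 0.01 for Fcer1g (−0.43 to 0.46) and 0.12 for Tyrobp (−0.33 to 0.58). Without the second HFD+Tel array these differences turned negative for Fcgr1 (−0.25), Fcgr3 (−0.20), Fcgr4 (−0.65), Fcer1g (−0.33) and Tyrobp (−0.18), and without the first they were 1.03, 0.61, 1.96, 0.35 and 0.43 for these genes. Those of HFD+Can from HFD lay between −0.06 for Fcgr2b (−0.60 to 0.48) and 0.23 for Fcgr4 (−1.27 to 1.73), and were −0.05 for Fcer1g (−0.49 to 0.40) and 0.04 for Tyrobp (−0.42 to 0.50). The intervals for Fcer1g and Tyrobp stopped well short of the size of the diet change of these genes, while those for Fcgr4 were wide in both directions.

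The drugs are related compounds, and were given at 1 dose and for 1 duration. Both are biphenylmethyl benzimidazoles; telmisartan has a carboxylic acid on the biphenyl where candesartan has a tetrazole, and a further benzimidazole. The comparison of HFD+Tel with HFD+Can was 1 pair, adjusted over all 11232 genes. Apart from Fcgr2b, the log2 differences between the drugs were 0.06 for Fcer1g (−0.39 to 0.51), 0.08 for Tyrobp (−0.38 to 0.54), 0.10 for Fcgrt (−0.18 to 0.39), 0.20 for Fcgr3 (−0.37 to 0.77), 0.29 for Fcgr1 (−0.53 to 1.12) and 0.43 for Fcgr4 (−1.07 to 1.92). All had an adjusted p of 0.949 or more in limma. With the mean of both drug groups set against HFD, 0 of 7 genes were called in limma and 0 had an unadjusted p under 0.05, against 0% and 2.68% of all genes.

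The second question was whether the 7 genes changed by as much as other macrophage genes on the same array. For each array the mean log2 signal of the 12 macrophage markers was subtracted from the log2 signal of each gene. Such a difference shows unequal change and is no ratio of levels. Fcer1g moved with the marker mean: its difference was 0.23 and 0.29 on the HFD+Tel arrays, 0.32 and 0.20 on the HFD+Can arrays, 0.25 and 0.22 on the HFD arrays and 0.35 and 0.24 on the Chow arrays. Its high-fat mean differed from its Chow mean by −0.05 (exact permutation test of 6 arrays against 2, two-sided p = 0.357). Fcgr3 gave −0.05 as well (exact permutation p = 0.714). Against this mean, neither set of arrays separated by diet. Against other yardsticks, given below, both genes stood lower on all 6 high-fat arrays.

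Fcgr2b and Fcgrt stood lower relative to the markers. Fcgr2b was at −0.73 and −0.75 on the HFD+Tel arrays, −1.45 and −1.52 on the HFD+Can arrays, −1.27 and −1.71 on the HFD arrays and −0.44 and −0.18 on the Chow arrays. All 6 high-fat arrays lay below both Chow arrays, and the HFD+Tel pair lay between the other high-fat arrays and Chow. The high-fat mean minus the Chow mean was −0.93 for Fcgr2b and −1.85 for Fcgrt on the log2 scale. The marker mean itself was 9.82 and 10.01 on the Chow arrays and 11.1 to 11.8 on the high-fat arrays. A gene with no diet change would therefore also stand lower. The share of all genes that separate by diet in this way was not counted. Fcgr4 stood higher by 1.44, Fcgr1 by 0.52 and Tyrobp by 0.43, each with all 6 high-fat arrays above both Chow arrays. For these 5 genes the exact permutation p was 0.0714, the smallest that 6 arrays against 2 allow, so none could reach 0.05. Which markers served as the yardstick mattered for the rest: with Adgre1 alone, the gene of the macrophage antigen F4/80, or with the median of the markers, Fcgr2b and Fcgrt stayed lower and Fcgr4 higher, while the Fcgr1 and Tyrobp arrays overlapped between diets and Fcgr3 and Fcer1g stood lower on all 6 high-fat arrays (−0.33 to −0.52).

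**Figure D4:**
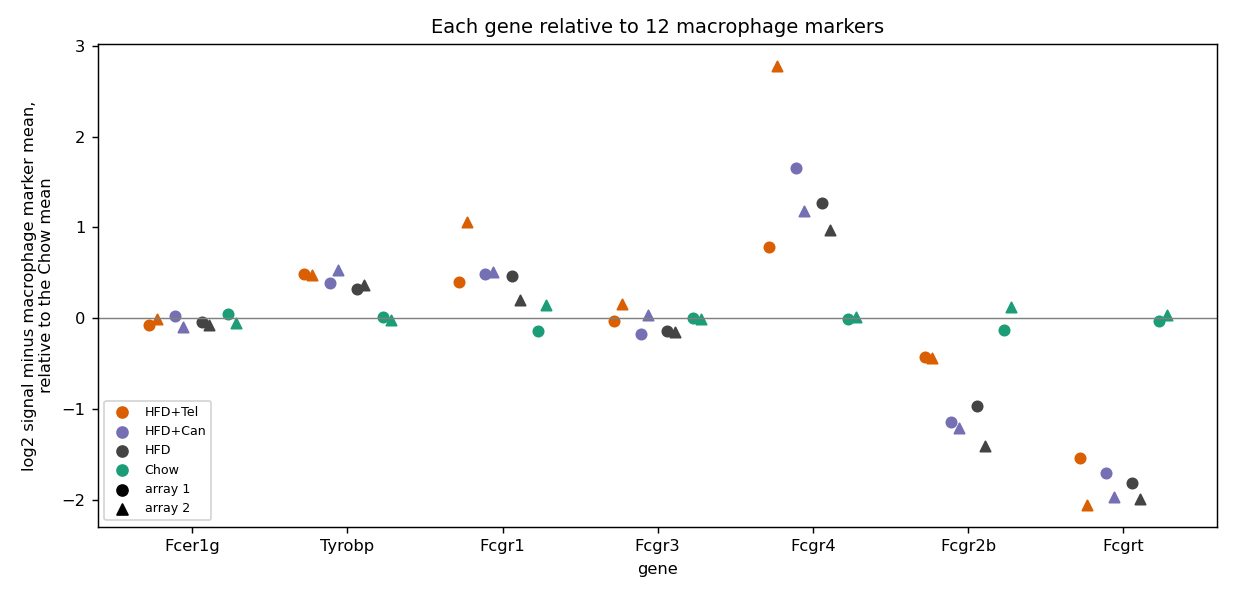
Log2 signal of each gene minus the mean log2 signal of 12 macrophage markers on the same array, drawn relative to the Chow mean (vertical axis, log2); circles are array 1 and triangles array 2. Fcer1g and Fcgr3 lie around 0 in all groups, Fcgr4 lies above it on all 6 high-fat arrays, and Fcgr2b and Fcgrt lie below it, Fcgr2b least so on the HFD+Tel arrays.

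Measured against the inhibitory receptor itself, all activating genes stood higher on the high-fat diet. Each value is the log2 signal of a gene minus that of Fcgr2b on the same array. The mean differences thus follow from the changes given above, share the same Fcgr2b values and are not separate evidence. The share of all genes that stood higher than Fcgr2b in this way was not counted. The log2 difference from Fcgr2b was higher on the high-fat arrays than on the Chow arrays by 1.45 for Fcgr1, 0.88 for Fcgr3, 2.37 for Fcgr4, 0.88 for Fcer1g and 1.36 for Tyrobp, and in each case the 6 high-fat arrays lay above both Chow arrays (exact permutation p = 0.0714, the smallest allowed). Group by group, Tyrobp relative to Fcgr2b was at 2.00 and 2.01 on the HFD+Tel arrays, 2.63 and 2.84 on the HFD+Can arrays, 2.38 and 2.87 on the HFD arrays and 1.24 and 0.95 on the Chow arrays. The HFD+Tel pair stood between the other high-fat arrays and Chow. Fcer1g relative to Fcgr2b had the same order, at 0.96 and 1.04 on the HFD+Tel arrays, 1.78 and 1.72 on the HFD+Can arrays, 1.52 and 1.93 on the HFD arrays and 0.78 and 0.43 on the Chow arrays. Fcgr3 had this order as well, but Fcgr1 and Fcgr4 did not. For Fcgr4 the HFD+Tel arrays held both the lowest and the highest of the 6 high-fat values (−3.02 and −1.01). For Fcgr1 the HFD+Tel arrays overlapped the HFD arrays. The difference between HFD+Tel and HFD was −0.62 for Tyrobp, −0.73 for Fcer1g, −0.54 for Fcgr3, −0.35 for Fcgr1 and −0.09 for Fcgr4. These values have no test of their own, since 2 arrays against 2 cannot give an exact permutation p below 0.333.

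Most of the ITAM-coupled receptors that could be tested rose too. Of 26 listed, 20 were on the array and 11 passed the filter, of which 8 rose and 0 fell in HFD fat, against 5.15% of all genes that rose (median log2 change 2.43, against −0.01 over all genes). Those not called were Clec4n, an FCER1G-coupled lectin, at −0.15 (limma, adjusted p = 0.845), Klrk1 at 0.89 (0.198) and Milr1 at 1.63 (0.0515). Clec7a, among those that rose, carries a motif of its own and Milr1 an inhibitory one. The myeloid lipid receptor Trem2, which signals through TYROBP, had signals of 2033 and 1972 on the HFD arrays and 100.03 and 84.3 on the Chow arrays. It was the most changed of the list, with a log2 change of 4.45 (limma, adjusted p = 0.000536). The C-type lectin Clec4d, which uses FCER1G, rose by 2.97 and Cd300lb, which pairs with TYROBP, by 2.86 on the log2 scale. A set of other Fc receptors and ITAM chains behaved less evenly: of 10 tested, 1 rose and 0 fell, where 5.15% of all genes rose (median 0.88). The one that rose was Fcmr, the receptor for IgM, with a log2 change of 1.51 (limma, adjusted p = 0.0385). Hcst, the DAP10 chain next to Tyrobp in the gene order, changed by 0.98 (limma, adjusted p = 0.0843), and the Fc receptor-like gene Fcrls by −0.60 (limma, adjusted p = 0.101). B2m, the light chain that FCGRT needs, had 13076 and 14822 on the HFD arrays and 11863 and 12857 on the Chow arrays. Its arrays did not overlap either, and its log2 change of 0.17 was not called (limma, adjusted p = 0.326).

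Downstream of the ITAM, 13 of 31 kinases and adaptors rose and 0 fell in HFD fat (median log2 change 0.88), where 5.15% of all genes rose and 2.95% fell. Syk, the kinase that binds the phosphorylated ITAM, had 786 and 712 on the HFD arrays and 182 and 253 on the Chow arrays, a log2 change of 1.80 (1.22 to 2.39; limma, adjusted p = 0.00510). The adaptors Lat2 and Blnk rose by 2.81 and 2.61 and the kinase Tec by 2.00. Blnk is also counted among the B cell markers. On the inhibitory side, 10 of 19 ITIM receptors and phosphatases rose and 0 fell against the same background (median 1.23). Ptpn6, the phosphatase SHP-1, had 777 and 698 on the HFD arrays and 323 and 303 on the Chow arrays, a log2 change of 1.23 (limma, adjusted p = 0.0197). Inpp5d, the SHIP1 partner of FCGR2B, had 381 and 386 on the HFD arrays and 144 and 193 on the Chow arrays, a log2 change of 1.20 (limma, adjusted p = 0.0201). The inhibitory receptors Cd200r1, which acts without an ITIM, Cd300a and Clec4a2 rose by 2.48, 2.19 and 1.85. In phagocytosis, 16 of 23 other genes rose and 0 fell, again against 5.15% and 2.95% (median 1.09), among them the integrin chain Itgb2 by 1.83, the scavenger receptor Msr1 by 2.78 and the oxidase subunit Cyba by 1.49. Many of these genes are expressed by macrophages, whose markers moved as given above, and the part of those cells in these counts was not tested.

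The same lists were counted in the other comparisons. In HFD+Tel fat against Chow, 8 of 11 ITAM-coupled receptors, 2 of 10 other Fc receptors and chains, 14 of 31 kinases and adaptors, 10 of 19 ITIM receptors and phosphatases and 16 of 23 phagocytosis genes rose, and 0 fell, against 4.96% and 3.48% of all genes. In HFD+Can fat against Chow the counts were 8, 1, 12, 10 and 14 that rose (4.48% of all genes), and 1 that fell (2.11%), Fcrls, with 307 and 309 on the HFD+Can arrays and 565 and 662 on the Chow arrays (log2 change −0.99; limma, adjusted p = 0.0230). In HFD+Tel fat Fcrls had 730 and 494, on both sides of the Chow arrays. With the mean of the 3 high-fat groups against Chow, 9, 3, 17, 13 and 17 rose (7.59% of all genes). There 1 kinase or adaptor fell, Plcg1 (log2 change −0.52; limma, adjusted p = 0.0492). Among the ITIM receptors and phosphatases 1 fell, Pecam1 (−0.63; limma, adjusted p = 0.0288), where 5.88% of all genes fell. Syk changed by 1.75 in HFD+Tel fat and 1.81 in HFD+Can fat against Chow (limma, adjusted p = 0.00635 and 0.00560). In each comparison of a drug group with HFD or of the drugs with each other, 0 genes of these lists were called in limma.

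**Figure D5:**
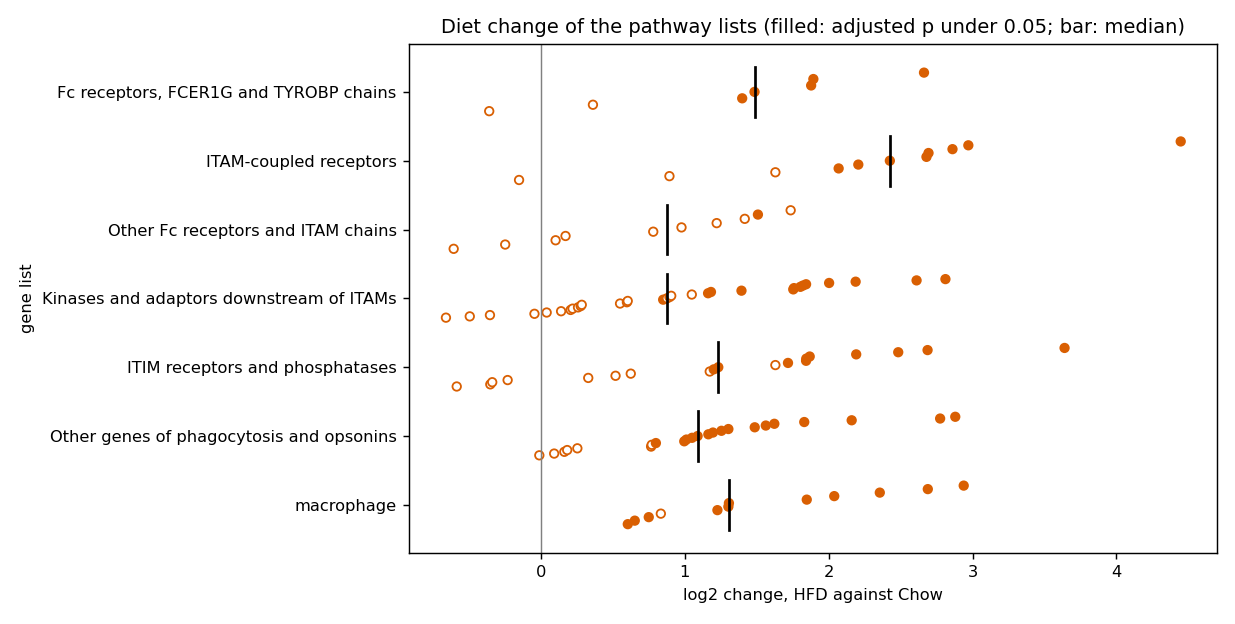
Log2 change of HFD against Chow for every tested gene (points) of the 7 Fc receptor and chain genes, 5 pathway lists and 12 macrophage markers; filled points have an adjusted p under 0.05 in limma and bars are medians. The bars run between 0.88 and 2.43, and all filled points lie to the right of 0.

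Markers of other cells that carry some of these receptors were counted in the same way. B cells, which carry FCGR2B, had 5 markers tested, of which 2 rose in HFD fat, Cd22 and Blnk, and all 5 had a positive change (median 1.74, against 1.31 for the macrophage markers). Sums in this paragraph take in all listed markers on the array, also those under the filter. For B cells these were 6 markers. Their summed signal was 1679 and 2819 on the HFD+Tel arrays, 2542 and 2712 on the HFD+Can arrays, 2668 and 2627 on the HFD arrays and 487 and 536 on the Chow arrays. The HFD+Tel arrays held both the lowest and the highest of the 6 high-fat sums. Of the mast cell markers 1 of 5 tested rose in HFD fat. The 8 on the array summed to 1026 and 1731 on the HFD arrays and 668 and 730 on the Chow arrays. Of the NK cell markers 0 of 4 tested were called in HFD or HFD+Can fat against Chow. In HFD+Tel fat 2 of 4 rose against Chow, where 4.96% of all genes rose. In the mean of the high-fat groups 2 of 4 rose as well (7.59% of all genes). The 7 on the array summed to 470 and 724 on the HFD+Tel arrays and 496 and 327 on the HFD+Can arrays. Their sums were 430 and 463 on the HFD arrays and 207 and 376 on the Chow arrays. Of the neutrophil markers S100a8 and S100a9 were tested (0 of 2 called), and Camp, Ngp, Ltf and Cxcr2 did not reach the filter. All 6 together summed to 1539 and 1343 on the HFD arrays and 1378 and 672 on the Chow arrays. The T cell (0 of 3) and dendritic cell (0 of 2) markers held no call. Adipocyte markers summed to 66373 and 69971 on the HFD arrays and 73325 and 82251 on the Chow arrays, with 2 of 8 that fell. On the HFD+Tel arrays the macrophage markers summed to 53668 and 70924 and the endothelial markers to 3108 and 3559, against 56128 and 62459 and 3226 and 3358 on the HFD+Can arrays. The part of these cells in the values of the 7 genes was not tested.

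Each gene was finally set beside the genes whose profile over the 8 arrays was nearest to its own, by the root mean square difference of the log2 values after centring each gene, among 10895 genes. Fcgr3 lay nearest to Slamf9 and Cd53 (0.0934 and 0.0961), Fcer1g to Cyba and Slamf9 (0.0680 and 0.0792) and Tyrobp to B4galnt1 and Lgmn (0.0819 and 0.0837). Fcgr1 lay nearest to Pik3ap1 and Pik3r5 (0.189 and 0.194). Fcgr4, with its wide HFD+Tel pair, had no close neighbour: Slamf7 and Mpeg1 were nearest at 0.384 and 0.476. Fcgr2b lay nearest to Clec10a and H2-Aa (0.183 and 0.194) and was farther from the nearest of the other 6 genes, Fcgr3 (0.474), and from Adgre1 (0.719). Clec10a, a lectin of macrophages, had 2037 and 2463 on the HFD+Tel arrays, 1325 and 1506 on the HFD+Can arrays, 1607 and 1176 on the HFD arrays and 1238 and 1531 on the Chow arrays. Its HFD+Tel arrays too lay above the 6 others, and its log2 difference of 0.70 from HFD was not called (0.28 to 1.13; limma, adjusted p = 0.766). Fcgrt, which varied least, lay nearest to Polg2 and Kat2b (0.0555 and 0.0606). These distances describe 8 arrays from 4 groups, and the genes were chosen by this distance from the same values.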

How the data were processed

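The deposited values are intensities on a linear scale, 1 for each probe set and array, which the authors derived with GeneChip Analysis Suite (per the series design text). Neither its summary algorithm nor any scaling was given in the sources used here. The table has 45101 probe sets and 8 arrays, with 0 columns of other samples and 0 negative values. Here each array was scaled to a common 2%-trimmed mean. Signals were floored at the 20th percentile (6.69) and log2 was taken. Probe sets at or above the 50th percentile of mean log2 signal were kept (22519), and the brightest with a single symbol stood for its gene (11232 genes). A linear model in limma 3.58.1 (R 4.3.3) with 4 group means tested the differences (4 residual degrees of freedom, variance trend, two-sided, Benjamini-Hochberg over all genes). Exact permutation tests used scipy 1.17.1 in Python 3.11.15. The fit was tested on simulated data. The number of arrays limits the precision. The genes and lists were chosen with earlier results of these data known. All 7 genes were tested in every comparison. Only some are named in HFD+Can against HFD, and none in the mean of both drugs against HFD. Of each pathway list the text names the 3 genes with the smallest p in HFD against Chow. Syk, Ptpn6, Inpp5d, B2m, Trem2 and Adgre1 are named as well, and cell type lists are mostly given as counts and sums. Genes nearest in profile are the 2 closest to each gene; other names were chosen after their values were seen. Replicate numbers stand for separate mice, the labels state no pairing across groups, and the main fit used none. The alternatives were other scaling (quantile, median centring, none), floor, pseudocount, filter, variance moderation, probe set summary, samples in the fit, replicate block, arrays left out and other macrophage yardsticks. Presence calls were not used here.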

Additional observations from a re-analysis of the deposited data

How the results depend on the processing

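Each call was recomputed under the alternatives listed with the methods, and no log2 change that had been called turned its sign. Differences of HFD+Tel from HFD, none of them called, turned negative for 5 of the 7 genes without the second HFD+Tel array (lowest −0.65, for Fcgr4). Without the filter on dim probe sets, 1 of the 7 genes was called in HFD against Chow, 1 in HFD+Tel against Chow, 1 in HFD+Can against Chow and 3 in the mean of the high-fat groups against Chow. In each of the single comparisons that gene was Tyrobp. With the mean of all probe sets of a gene, 3 were called in HFD against Chow. Leaving out 1 array in turn gave 2 to 5 genes in HFD against Chow (2 without the first Chow array or either HFD array), 4 to 6 in HFD+Tel against Chow, 1 to 5 in HFD+Can against Chow (1 without the second and 3 without the first HFD+Can array, 2 without the first Chow array) and 4 to 6 for the high-fat mean. A pseudocount of 16 in place of the floor ended the Fcgr4 call in HFD (log2 change 2.28; limma, adjusted p = 0.0609) and HFD+Can fat (2.50; 0.0513), as did a fit without the variance trend (0.0771 and 0.0653). Relative to Adgre1 alone, the high-fat minus Chow difference was 0.051 for Fcgr1, −1.40 for Fcgr2b, −0.52 for Fcgr3, −2.32 for Fcgrt, −0.51 for Fcer1g and −0.040 for Tyrobp. Relative to the median of the markers it was 0.24, −1.21, −0.33, −2.13, −0.33 and 0.15 for these genes. Relative to the mean of the Fcgr2b probe sets it was 1.11 for Fcgr3, 1.12 for Fcer1g and 1.59 for Tyrobp. The cause of these shifts was not tested. Log2 differences between arrays 1 and 2 correlated between groups at −0.041 to 0.206. Such a correlation cannot show whether the replicate numbers pair mice, and the labels state no pairing. With the replicate block, 5, 6, 5 and 5 of the 7 genes were called in those 4 comparisons, as without it, and 1280 in place of 909 of all genes in HFD against Chow. Over all genes, the calls in HFD against Chow numbered 164 (without the second HFD array) to 1624 (without the second HFD+Tel array) with 1 array left out, 174 without the filter and 575 with median centring. Those in HFD+Tel against Chow numbered 533 (without the second Chow array) to 1674 (without the first HFD+Tel array), against 948 with all, 332 without the filter, 198 with only these groups and 2045 without scaling. Those in HFD+Can against Chow numbered 117 (without the second HFD+Can array) to 1324 (without the second HFD+Tel array), against 740 with all, and 164 without the filter. For the high-fat mean they numbered 839 (without the second Chow array) to 2515 (without the first HFD+Tel array), against 1514 with all, 712 without the filter and 973 with median centring. Without the filter 4, 6 and 6 genes were called in HFD+Tel against HFD, HFD+Can against HFD and HFD+Tel against HFD+Can, 1 in the mean of both drugs against HFD, and 1 in HFD+Tel against HFD+Can without scaling; none of the 7 genes was among them. The limits are 2 mice per group, Chow signals of Fcgr4 near the filter, and probe sets that may share sequence.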
